A study of Mus musculus with 27 samples.

Results

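The 49 genes described here copy the chromosomes and divide the cell, and they were followed in all 27 samples of an RNA-seq experiment on C2C12 cells, an established line of mouse myoblasts. They are 49 of the 24825 genes in the files, and each is 1 row of the FPKM files, found by its symbol. The genes were picked on measured values, because cell cycle genes were higher with NFIA than in control cells at day 0, when control cells had begun to differentiate. Every comparison that uses the day 0 values of control or NFIA cells is therefore a description. The calls counted in it sort the members by size and spread and are no test of them. Values from the other samples, which this reason does not name, were tested, although the members were chosen with earlier results of these data known.

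Cells of 3 kinds were compared, namely control cells, cells expressing full-length NFIA and cells expressing the Δpro#3 mutant, an NFIA from which the pro#3 domain was deleted. NFIA is a DNA-binding transcription factor of the nuclear factor I family that promotes brown fat development. Full-length NFIA and the mutant were introduced with pMXs retroviral vectors, so they were driven by the vector and not by the gene's own promoter. Each kind of cell was sequenced at day 0 and on day 7 of differentiation, the latter with and without 4 h in 10 µM forskolin, which activates adenylyl cyclase and raises cyclic AMP. There were 3 samples in each of the 9 groups. Per the labels, differentiation began at confluence with an adipogenic mixture of isobutylmethylxanthine, indomethacin, dexamethasone, insulin, T3 and rosiglitazone and went on with insulin, T3 and rosiglitazone, for control cells as well. No source used here says that the 3 samples of a group came from separate cultures, so p-values measure the spread between these samples, which may be technical.

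A cell that is about to divide first loads the MCM helicase onto origins of replication with the help of CDC6 and CDT1, then fires the origins with MCM10 and the GINS complex, and copies DNA with polymerases held by the PCNA clamp. Cyclin-dependent kinases drive each step, with cyclin E at the start of S phase, cyclin A through S phase and cyclin B with CDK1 at the entry into mitosis. E2F factors turn on the replication genes, and MYBL2 and FOXM1 turn on the mitosis genes. Myoblasts leave the cell cycle for good when they fuse into muscle fibers, and the DREAM complex and RB family keep these genes off in resting cells. Preadipocytes can pass through further divisions after an adipogenic stimulus before they accumulate lipid.

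Each sample held between 9567769 and 27230965 fragments, and a member rested on 71 to 37488 fragments summed over the 3 samples of a group. FPKM values, the fragments of a gene relative to its length and to all fragments of the sample, are given as deposited, without scaling between samples. Nfia had 225 to 250.2 FPKM in the day 0 NFIA samples and 397.1 to 423 FPKM in the day 0 Δpro#3 samples, against 0.175 to 7.35 FPKM in the day 0 control samples, of which replicate 2 was the highest. Some libraries stood apart over the members. NFIA day 7 replicate 3 had a median log2(FPKM + 1) of 2.43 over the 49 genes, against 1.88 and 1.85 in replicates 1 and 2. Δpro#3 replicate 3 with forskolin was at 2.33 against 1.82 and 2.0, while NFIA replicate 3 with forskolin was at 1.5 against 1.97 and 1.97.

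At day 0, NFIA cells had more RNA of nearly every member than control cells. Of the 49 genes, 47 were called higher and 1 was called lower, and the remaining member, Rfc3, a subunit of the clamp loader, was higher by 0.51 on the log2 scale. A gene was called where the moderated test of limma on log2(FPKM + 1) gave an adjusted p under 0.05 over all genes tested and FPKM + 1 differed by more than 1.5-fold. Of all 12105 genes tested, 13.4% were called higher and 11% lower. Since the members were chosen on this contrast, their count is what the choice put there. The median member was 1.25 higher on the log2 scale, against 0.01 for all genes, and the median ratio of the mean FPKM was 2.65. The member that went the other way was E2f2, which was lower by 2.07 on the log2 scale. In bulk RNA, fewer cells in cycle and less RNA per cell cannot be told apart.

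Muscle genes differed in the same samples. The 4 myoblast markers, Myod1, Myf5, Des and Vcam1, summed to 565 to 578 FPKM in control, 155 to 162 FPKM in NFIA and 381 to 392 FPKM in Δpro#3 samples at day 0, with none at 0. The 11 differentiated muscle markers summed to 1326 to 1447 FPKM in the control samples at day 0, to 15.0 to 17.1 FPKM in the NFIA samples and to 96 to 103.9 FPKM in the Δpro#3 samples, with none of the 11 at 0 in any group. The 6 adipocyte markers summed to 32.2 to 39.5 FPKM in control, 378 to 409 FPKM in NFIA and 293 to 312 FPKM in Δpro#3 samples, and 1 of them, Cidec, was at 0 in the control samples. Nearly all of each sum was Lpl, with means of 34.6, 383 and 298 FPKM in control, NFIA and Δpro#3 samples. Fabp4 had means of 0.23, 10.9 and 4.13 FPKM, while Adipoq, Cidec and Plin1 had means of at most 0.82 FPKM. Cd36 went the other way, at 0.55, 0.01 and 0.16 FPKM. Macrophage markers, of which 4 of 5 were in the files, summed to 2.02 to 4.45 FPKM at day 0, with Adgre1 at 0 in every day 0 group, and the 3 endothelial markers summed to 0.361 to 0.630 FPKM. The part of the muscle genes' difference in the members' difference was not tested.

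**Figure D1:**
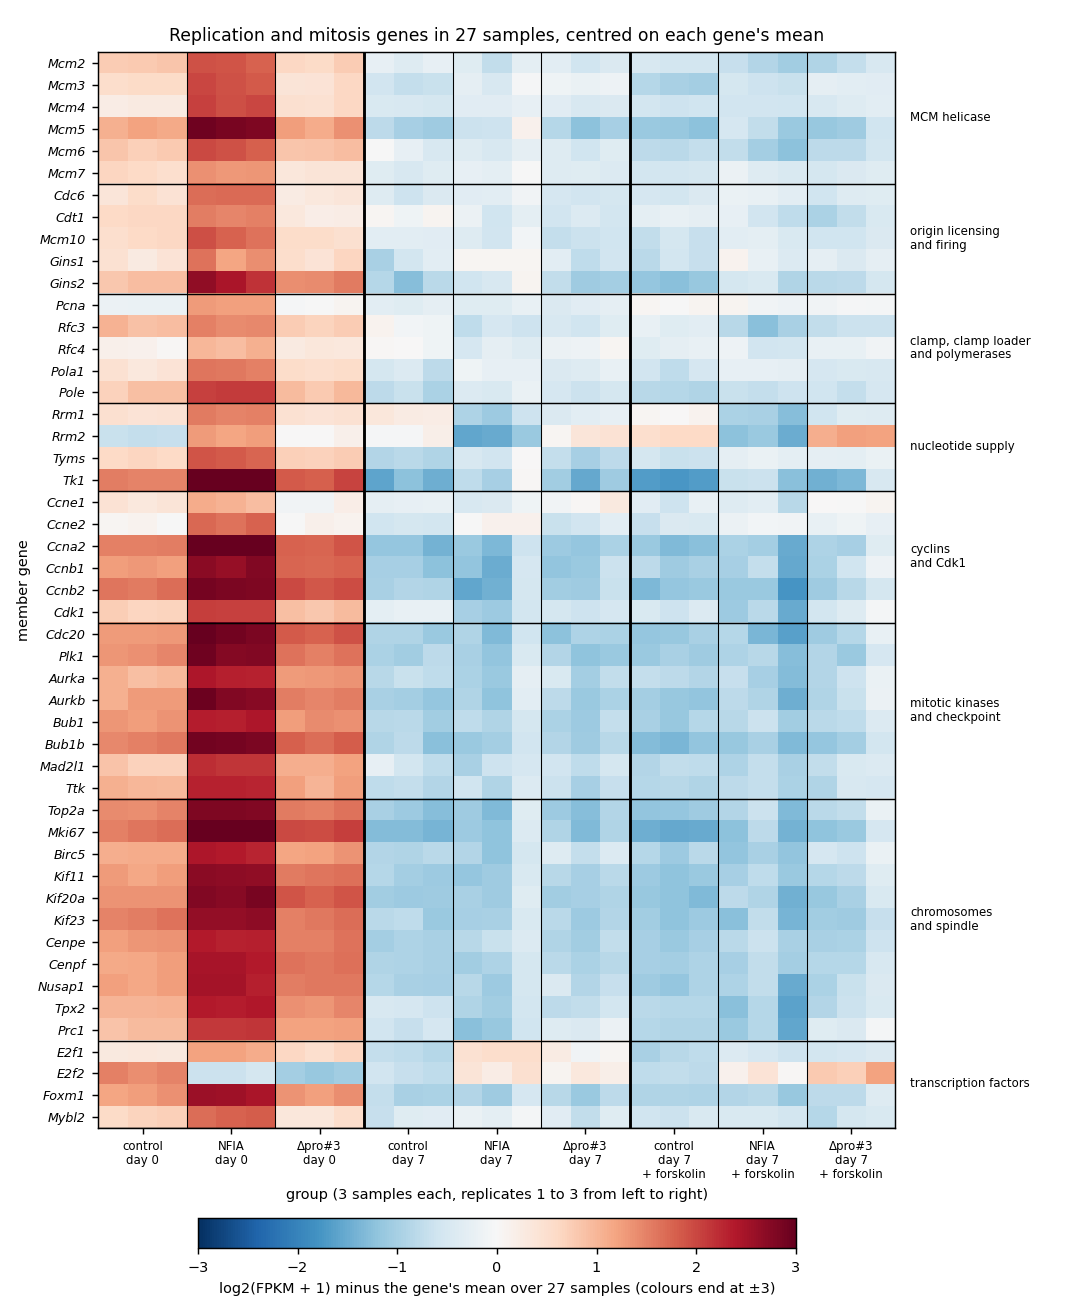
Each of the 49 members (rows, grouped by role) in each of the 27 samples (columns, 3 per group), as log2(FPKM + 1) minus the gene's mean over all samples, with red above and blue below that mean. The 3 NFIA samples at day 0 are the reddest for 48 of the 49 genes by group mean, and E2f2 is the row that is reddest in the control samples at day 0 instead.

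The promoters of some members are shown because nearly all members were higher in NFIA cells at day 0, the contrast they were chosen on. Some of their start regions also hold the DNA words of the factors that regulate cell cycle genes. The 300-base windows around gene starts come from RefSeq, assembly GRCm38.p6, which is another build than the mm9 of the FPKM files, and 39 of the 49 members had a window. The genes without one were Aurkb, Ccna2, Ccne2, Foxm1, Gins1, Gins2, Kif20a, Mcm4, Pole and Tpx2. Each window was searched on both strands for 4 E2F words (TTTCCCGC, TTTCGCGC, TTTGCCGC and TTTGGCGC), for the cell cycle homology region, called CHR, through which DREAM and the MYBL2 and FOXM1 complexes act on mitosis genes (TTTGAA or TTCGAA), and for the CCAAT box. These 5 windows, chosen after the values were seen, show a replication gene with an E2F word, a gene with both kinds of word, a mitosis gene with a CHR, and the genes E2f2 and Rrm2, whose levels departed from those of the other members. They are written 5′ to 3′ on the gene's strand, with E2F and CHR words in capitals.
Mcm5 (chr8:75109259-75109558, plus strand): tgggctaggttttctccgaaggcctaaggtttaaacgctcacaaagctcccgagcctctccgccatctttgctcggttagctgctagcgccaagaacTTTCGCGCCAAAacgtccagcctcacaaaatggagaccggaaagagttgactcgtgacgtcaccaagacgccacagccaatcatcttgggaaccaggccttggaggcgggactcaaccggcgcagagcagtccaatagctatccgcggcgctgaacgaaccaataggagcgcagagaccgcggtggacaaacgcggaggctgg
Cdk1 (chr10:69352863-69353162, minus strand): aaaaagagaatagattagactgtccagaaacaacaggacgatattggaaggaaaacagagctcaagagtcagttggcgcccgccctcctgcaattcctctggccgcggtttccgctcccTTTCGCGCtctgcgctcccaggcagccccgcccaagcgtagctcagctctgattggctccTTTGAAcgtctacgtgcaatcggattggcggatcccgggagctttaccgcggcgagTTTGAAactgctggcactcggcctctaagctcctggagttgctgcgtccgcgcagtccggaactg
Plk1 (chr7:122159185-122159484, plus strand): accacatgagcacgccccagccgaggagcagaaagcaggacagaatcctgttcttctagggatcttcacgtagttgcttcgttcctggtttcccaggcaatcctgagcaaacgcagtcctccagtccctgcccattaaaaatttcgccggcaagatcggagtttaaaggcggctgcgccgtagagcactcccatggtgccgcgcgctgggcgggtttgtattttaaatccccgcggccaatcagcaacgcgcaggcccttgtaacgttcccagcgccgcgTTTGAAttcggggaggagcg
E2f2 (chr4:136172024-136172323, plus strand): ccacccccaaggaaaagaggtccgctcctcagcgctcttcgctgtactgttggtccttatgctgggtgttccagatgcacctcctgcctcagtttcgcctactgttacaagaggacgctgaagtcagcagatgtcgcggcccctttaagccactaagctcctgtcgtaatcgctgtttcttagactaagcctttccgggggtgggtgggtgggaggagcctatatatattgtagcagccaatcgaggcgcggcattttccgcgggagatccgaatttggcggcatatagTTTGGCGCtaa
Rrm2 (chr12:24708004-24708303, plus strand): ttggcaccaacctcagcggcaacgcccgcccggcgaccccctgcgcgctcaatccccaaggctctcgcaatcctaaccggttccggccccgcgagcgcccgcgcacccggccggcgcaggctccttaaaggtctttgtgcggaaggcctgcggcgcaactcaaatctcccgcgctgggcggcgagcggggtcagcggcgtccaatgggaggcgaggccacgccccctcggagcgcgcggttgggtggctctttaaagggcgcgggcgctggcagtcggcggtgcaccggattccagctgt

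By the NCBIM37 (mm9) annotation of the files, Mcm5 lies at chr8:77633427-77652338, Rrm2 at chr12:25393106-25399011, Rrm1 at chr7:109590209-109618285, E2f1 at chr2:154385143-154395628 and E2f2 at chr4:135728309-135751972, and their values count exons of the whole gene. In the Mcm5 window, 2 E2F words on opposite strands overlap and make 1 run of capitals. The Cdk1 window holds 1 E2F word and, nearer to the gene start, 2 CHR words. The Plk1 window has a CHR just past the gene start. E2f2 has 2 windows, and the first, shown here, has an E2F word past the gene start, while the Rrm2 window holds neither kind of word. At least 1 E2F word was in the windows of 10 of the 39 members (25.6%), against 2.6% of the 27025 genes of the table. A CHR word was in those of 18 members (46.2%, against 21.7%) and a CCAAT box in those of 28 members (71.8%, against 41.1%). The E2F and CHR words were spread unevenly over the roles, and the CCAAT box less so. E2F words were in 8 of 16 windowed genes of replication and nucleotide supply (50%) and in 0 of 16 genes of mitotic kinases, checkpoint, chromosomes and spindle. CHR words were in 3 of those 16 replication genes (18.8%) and in 12 of those 16 mitosis genes (75%). The 7 windowed cyclins, Cdk1 and factors had E2F words in 2 (28.6%) and CHR words in 3 (42.9%). A CCAAT box was in 68.8% of the replication and 81.2% of the mitosis genes. A match is only a run of letters, and the absence of one says only that these letters are not in the window.

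The MCM helicase, the ring that unwinds DNA ahead of the replication fork, had its 6 subunits 0.76 to 1.74 higher on the log2 scale in NFIA than in control cells at day 0. Mcm5 had 10.6, 11.8 and 11.1 FPKM in the 3 control samples, 40.4, 38.4 and 37.2 FPKM in the NFIA samples and 12.2, 11.0 and 13.3 FPKM in the Δpro#3 samples. For Mcm2, the values were 16.3, 16.4 and 17.0 FPKM in control, 37.1, 36.3 and 33.6 FPKM in NFIA and 14.6, 14.2 and 16.2 FPKM in Δpro#3 cells. In both genes every NFIA sample lay above every other sample, while the control and Δpro#3 samples overlapped in Mcm5 and did not in Mcm2, where Δpro#3 was lower. Such separation at day 0 is to be read beside the differences of all genes. At an adjusted p under 0.05 alone, 37.7% of them were higher and 35.6% lower in NFIA than in control cells.

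The 5 origin licensing and firing genes were 0.89 to 1.54 higher on the log2 scale in NFIA than in control cells. Cdc6, the loader of the helicase, had 1.51, 1.88 and 1.65 FPKM in control, 5.29, 5.29 and 5.32 FPKM in NFIA and 1.32, 1.43 and 1.5 FPKM in Δpro#3 samples. Its partner Cdt1 had 9.45, 9.62 and 9.60 FPKM in control, 18.9, 17.9 and 18.7 FPKM in NFIA and 7.58, 6.89 and 7.04 FPKM in Δpro#3 samples. Both were highest in the NFIA samples and lowest in the Δpro#3 samples, without overlap between any of the groups. The Cdt1 rows should be read with the caution that the annotation has another gene on the same strand, Gm20388, over the Cdt1 locus, and the same holds for Foxm1 and 4933413G19Rik.

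Pcna, the sliding clamp, was the most abundant member of its role. It had 53.0, 51.6 and 51.4 FPKM in control, 146, 140.3 and 141 FPKM in NFIA and 58.1, 59.4 and 63.0 FPKM in Δpro#3 samples. The clamp, its loader and the polymerases Pola1 and Pole were 0.51 to 1.44 higher on the log2 scale in NFIA than in control cells.

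Nucleotide supply held the 2 members that were higher by most. Tk1, the thymidine kinase of the salvage pathway, had 19.4, 18.7 and 18.8 FPKM in control, 81.5, 74.7 and 74.8 FPKM in NFIA and 24.0, 23.2 and 27.6 FPKM in Δpro#3 samples. Its difference between NFIA and control cells was 1.96 on the log2 scale. Rrm2, the regulatory subunit of ribonucleotide reductase, which makes deoxyribonucleotides, had 41.8, 40.4 and 41.4 FPKM in control, 165, 155 and 163 FPKM in NFIA and 68.3, 67.8 and 75.1 FPKM in Δpro#3 samples. It was 1.94 higher in NFIA than in control cells, and in this gene the Δpro#3 samples also lay above every control sample.

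Among the cyclins, Ccne1 differed least between NFIA and control cells, at 0.66 on the log2 scale, and Ccna2 (1.67) and Ccne2 (1.65) most. Ccne1, a cyclin E, had 5.56, 5.01 and 5.37 FPKM in control, 9.47, 9.08 and 8.31 FPKM in NFIA and 3.55, 3.51 and 4.54 FPKM in Δpro#3 samples. The other cyclin E gene, Ccne2, had 2.47, 2.57 and 2.30 FPKM in control, 9.90, 9.26 and 10.3 FPKM in NFIA and 2.31, 2.65 and 2.59 FPKM in Δpro#3 samples. Ccne1 was thus below control in all the mutant samples, whereas Ccne2 overlapped between control and mutant samples. Cyclin A, Ccna2, had 21.6, 21.6 and 22.1 FPKM in control, 72.7, 69.1 and 72.7 FPKM in NFIA and 26.3, 25.9 and 28.5 FPKM in Δpro#3 samples. The mitotic cyclin Ccnb1 had 19.8, 20.4 and 19.5 FPKM in control, 56.1, 52.6 and 58.5 FPKM in NFIA and 28.2, 27.5 and 28.6 FPKM in Δpro#3 samples. Its kinase Cdk1 had 23.4, 21.9 and 22.2 FPKM in control, 61.0, 59.2 and 59.9 FPKM in NFIA and 26.5, 24.5 and 27.3 FPKM in Δpro#3 samples. These 3 genes of late S phase and mitosis had the order control, Δpro#3, NFIA with no overlap between groups.

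The 8 mitotic kinases and checkpoint genes were 1.06 to 1.61 higher on the log2 scale in NFIA than in control cells. Cdc20, the activator of the ubiquitin ligase that ends metaphase, had 25.2, 25.6 and 25.9 FPKM in control, 84.7, 80.0 and 75.9 FPKM in NFIA and 38.1, 36 and 39.5 FPKM in Δpro#3 samples. The Polo-like kinase Plk1, whose promoter is shown above, had 14.3, 14.9 and 16 FPKM in control, 45.1, 40.5 and 40.9 FPKM in NFIA and 17.9, 16.6 and 18.1 FPKM in Δpro#3 samples. In both, the Δpro#3 samples lay above every control sample and far below every NFIA sample. Aurkb, the kinase of the chromosomal passenger complex, had 10.4, 12.2 and 12.1 FPKM in control, 40.5, 36.4 and 34.7 FPKM in NFIA and 14.7, 13.9 and 14.7 FPKM in Δpro#3 samples. Bub1, a kinase of the spindle checkpoint, had 8.05, 7.56 and 8.17 FPKM in control, 17.4, 17.1 and 18.2 FPKM in NFIA and 7.52, 8.63 and 8.26 FPKM in Δpro#3 samples. Control and mutant samples overlapped in Bub1 but not in Aurkb.

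Genes of chromosomes and spindle, 11 in all, were 1.04 to 1.67 higher in NFIA than in control cells on the log2 scale. Top2a, the topoisomerase that untangles sister chromatids, had 36.7, 36 and 38.2 FPKM in control, 96.3, 96.8 and 95.7 FPKM in NFIA and 40.5, 39.3 and 42.6 FPKM in Δpro#3 samples. Mki67, the Ki-67 protein that coats mitotic chromosomes, had 17.2, 18.2 and 19.3 FPKM in control, 59.8, 59.3 and 61.2 FPKM in NFIA and 24.1, 23.4 and 25.5 FPKM in Δpro#3 samples. The Δpro#3 samples of these genes sat just above the control samples. Birc5, survivin, had 9.98, 10.2 and 10.1 FPKM in control, 26.8, 25.7 and 24.2 FPKM in NFIA and 10.7, 11.0 and 12.0 FPKM in Δpro#3 samples. The spindle motor Kif11 had 9.40, 8.53 and 9.29 FPKM in control, 27.2, 26.5 and 25.9 FPKM in NFIA and 11.6, 12.0 and 12.5 FPKM in Δpro#3 samples. The kinetochore gene Cenpf had 6.62, 6.70 and 7.27 FPKM in control, 18.3, 18 and 16.8 FPKM in NFIA and 9.62, 9.26 and 9.87 FPKM in Δpro#3 samples. None of these 5 genes had overlapping groups. At an adjusted p under 0.05 alone, 37.7% of all genes were higher in NFIA and 32.5% in Δpro#3 than in control cells.

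The transcription factors divided. E2f1, an activating E2F, had 8.16, 8.24 and 8.07 FPKM in control, 16.2, 16.1 and 15.2 FPKM in NFIA and 10.4, 9.46 and 10.5 FPKM in Δpro#3 samples. E2f2, a close relative of E2f1, had 12.2, 11.2 and 11.9 FPKM in control, 1.95, 1.97 and 2.22 FPKM in NFIA and 1.27, 1.08 and 1.25 FPKM in Δpro#3 samples. E2f2 was thus the member whose control samples lay far above those of NFIA and Δpro#3 cells. Foxm1 had 9.50, 10.1 and 11.0 FPKM in control, 26.4, 25.8 and 24.4 FPKM in NFIA and 10.7, 9.81 and 11.2 FPKM in Δpro#3 samples. Mybl2 had 2.21, 2.38 and 2.49 FPKM in control, 5.87, 6.28 and 6.61 FPKM in NFIA and 1.73, 1.69 and 2.07 FPKM in Δpro#3 samples. Foxm1 and Mybl2 were highest in every NFIA sample, and Mybl2 was lowest in the mutant samples.

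The Δpro#3 cells differed less from control cells at day 0. Of the 49 members, 1 was called higher, Rrm2 by 0.76 on the log2 scale, and 1 lower, E2f2 at -2.54, where 7.26% of all genes were called higher and 6.73% lower. With no fold threshold, 30 members were higher and 7 lower, where 32.5% of all genes were higher and 29.7% lower, and 38 of the 49 members were on the positive side, as were 51.5% of all genes. The median member was 0.20 higher. The number called higher was 2 without control replicate 2 or 3 or without Δpro#3 replicate 1, and 3 without Δpro#3 replicate 2. The mitosis genes of both roles were on the positive side, all 8 kinases and checkpoint genes and all 11 chromosome and spindle genes, with values of 0.03 to 0.55 and 0.06 to 0.49, while 3 of the 6 MCM genes were above and 3 below 0. Against NFIA cells, 48 of the 49 members were called lower in Δpro#3 cells and 0 higher, and by voom on the fragments 49 lower and 0 higher, where 8.66% of all genes were called lower and 6.96% higher. No member was higher at an unadjusted p under 0.05 either (0 of 49), while 35% of all genes were. The lowest was Ccne2, at -1.62 on the log2 scale, followed by Mcm5 at -1.59. These comparisons share control or NFIA samples with the choice of members.

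Among the other genes of the same pathway, taken from lists chosen with earlier results known, the day 0 values are likewise a description. In NFIA against control cells, 13.4% of all genes were called higher and 11% lower. Of 33 other replication genes, such as the origin recognition complex and the DNA ligase, 25 were called higher in NFIA than in control cells and 0 lower, with a median of 0.95 on the log2 scale. Of 35 other mitosis genes, 31 were called higher and 0 lower, with a median of 1.27. By voom on the fragments, 27 and 31 were higher and 0 of either list lower. At an unadjusted p under 0.05 limma had 1 lower in each list, where 36.6% of all genes were lower. Of 26 genes of E2F factors, the DREAM complex, pocket proteins and cyclin-dependent kinases with their inhibitors and D cyclins, 8 were called higher and 4 lower, with a median of 0.13. In Δpro#3 against control cells, the same lists had 1, 2 and 0 genes called higher and 0, 0 and 4 called lower by limma, with 9, 25 and 8 higher and 5, 1 and 12 lower at an unadjusted p under 0.05. Of all genes, 7.26% were called higher and 6.73% lower, and at the unadjusted p 34.1% were higher and 31.5% lower. By voom the lists had 1, 2 and 1 higher and 0, 0 and 4 lower.

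**Figure D2:**
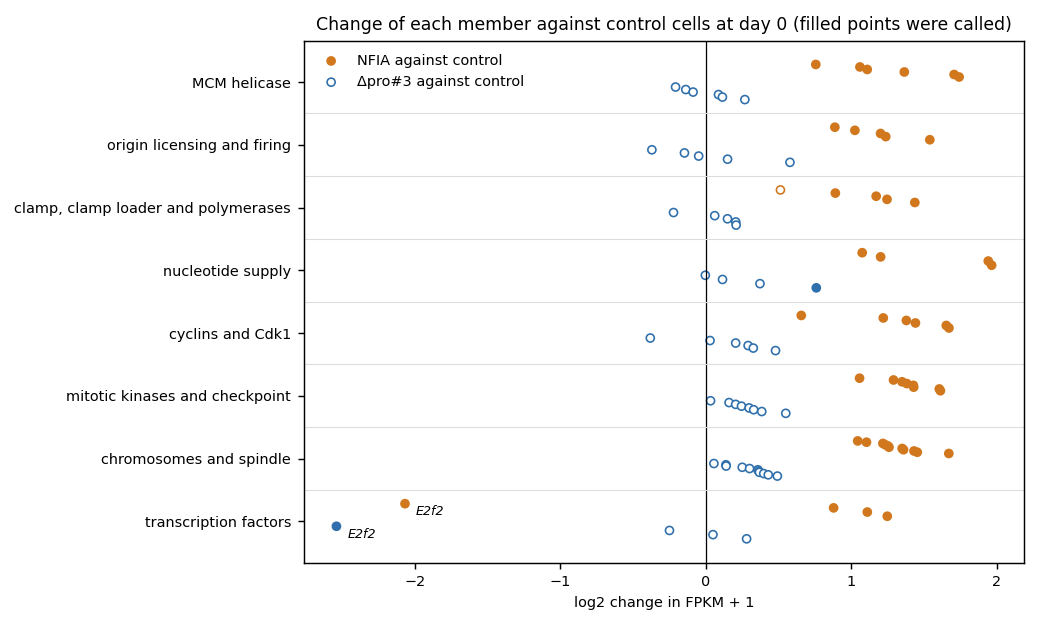
Change of each member against control cells at day 0 on the log2 scale of FPKM + 1 (horizontal axis) by role (vertical axis), for NFIA cells (orange) and Δpro#3 cells (blue), with filled points for called genes. Orange points lie between 0.51 and 1.96 and blue points between -0.38 and 0.76, apart from E2f2 at -2.07 and -2.54.

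By day 7, most members were at low levels in all cells. In Δpro#3 cells, which the reason for choosing the members does not name, 43 of 49 members fell from day 0 to day 7 and 1 rose, E2f2, where 21.7% of all genes tested fell and 15.4% rose. The median member was -1.75 on the log2 scale, against -0.11 for all genes. The largest falls were those of Tk1, -3.10 ± 0.19 (adjusted p = 1.70e-10), and Mki67, -3.04 ± 0.15 (adjusted p = 1.02e-11), while E2f2 rose by 1.26 ± 0.08 (adjusted p = 1.70e-10), all by limma with its SE. The 5 members not called were Pcna, Rfc4, Rrm2, Ccne1 and E2f1. Of these, Pcna, Rfc4 and E2f1 were lower by 0.36, 0.40 and 0.51 on the log2 scale, and Rrm2 and Ccne1 were at 0.23 and 0.08.

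In control and NFIA cells the same change is a description. Of the 49 members, 45 were called lower and 1 higher in control cells, where 21.7% of all genes were called lower and 17.9% higher, and 48 lower and 1 higher in NFIA cells, where 22.2% were called lower and 16.8% higher. The median member changed by -1.64 in control cells and by -2.93 in NFIA cells on the log2 scale, against -0.06 and -0.11 for all genes, and by -3.05 in NFIA cells without day 7 replicate 3. The gene that went up was Rrm2 in control cells, by 0.74, and E2f2 in NFIA cells, by 0.96. Mki67 (-2.94) and Tk1 (-2.93) were the lowest in control cells, and Ccna2 (-4.21) and Mki67 (-4.17) in NFIA cells, both at -4.41 without day 7 replicate 3. The 3 members of control cells that were not called, Pcna, Rfc4 and Rrm1, differed by -0.12, -0.13 and -0.18.

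The part of the day 0 level that was left at day 7 had a median over the 49 members of 23.8% in control cells, 10.2% in NFIA cells and 20.5% in Δpro#3 cells. In NFIA cells it was 9.04% without day 7 replicate 3. Mki67 kept 8.28% in control and 4.18% in NFIA cells, the least of the members in both, and Tk1 kept 8.25% in Δpro#3 cells. At the other end, Rrm2 stood at 169% of its day 0 level in control cells, and E2f2 at 241% in NFIA and 357% in Δpro#3 cells. Roles differed in how far they went down. In control cells the median change was -2.23 for mitotic kinases and checkpoint genes and -2.22 for chromosomes and spindle, against -1.05 for the MCM helicase and -0.97 for the clamp, its loader and the polymerases. In Δpro#3 cells these medians were -2.36, -2.47, -1.02 and -0.89. Among the other pathway genes of Δpro#3 cells, 16 of 33 other replication genes and 32 of 35 other mitosis genes were called lower and 2 and 0 called higher, by limma. Of all genes, 21.7% were called lower and 15.4% higher. Of the 26 genes of E2F factors, DREAM and kinase inhibitors, 8 were called lower and 4 higher, with a median of -0.25. Of the 35 other mitosis genes, 0 were higher at an unadjusted p under 0.05 in limma or by voom. In limma, 33.2% of all genes were higher at that p.

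**Figure D3:**
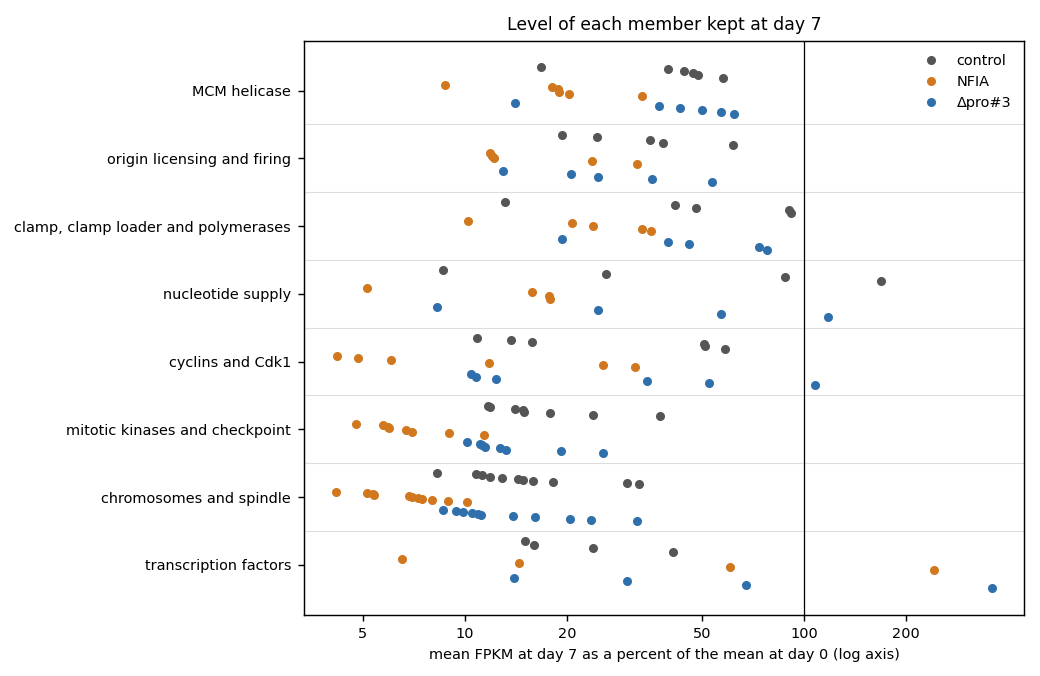
Mean FPKM at day 7 as a percent of the mean at day 0 (log axis), 1 point per member and kind of cell, by role, with a line at 100%. The medians over the members are 23.8% in control, 10.2% in NFIA and 20.5% in Δpro#3 cells, and the points right of the line are Rrm2 in control and Δpro#3 cells, Ccne1 in Δpro#3 cells and E2f2 in NFIA and Δpro#3 cells.

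With the members this low at day 7, NFIA and control cells differed in few of them, and in both directions. Of the 48 members tested, 6 rose and 4 fell in NFIA against control cells, where 16.8% of all 12324 genes were called higher and 18.8% lower. The median member differed by 0.09 on the log2 scale, by -0.07 without NFIA replicate 3 and by -0.16 with a minimum of 5 FPKM, against -0.08 for all genes. Cdc6 was below the filter of a mean of 0.5 FPKM and was not tested, with 0.503, 0.278 and 0.454 FPKM in control, 0.534, 0.578 and 0.801 FPKM in NFIA and 0.376, 0.310 and 0.360 FPKM in Δpro#3 samples. At this day the 11 differentiated muscle markers summed to 17547 to 20711 FPKM in control, 2412 to 3372 FPKM in NFIA and 18723 to 19758 FPKM in Δpro#3 samples, with none of the 11 at 0. The 4 myoblast markers summed to 690.5 to 795 FPKM in control, 261 to 319.6 FPKM in NFIA and 968 to 1091 FPKM in Δpro#3 samples, none at 0. Most of each sum was Des, with means of 628, 235 and 959 FPKM in control, NFIA and Δpro#3 samples. Vcam1 had another order, at 14.3, 35.4 and 8.49 FPKM. Myod1 was lower in Δpro#3 than in control samples, at 73.2, 24.6 and 41.4 FPKM. The 6 adipocyte markers summed to 344 to 384 FPKM in control, 13363 to 14870.4 FPKM in NFIA and 613 to 2018 FPKM in Δpro#3 samples, none at 0. Macrophage markers summed to 7.76 to 15.9 FPKM, nearly all of it Cd68, with Adgre1 at a group mean of at most 0.011 FPKM, and endothelial markers summed to 0.021 to 0.571 FPKM. Their part in the members' differences was not tested.

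E2f1 and E2f2, the activating E2F genes among the members, were higher in NFIA and in Δpro#3 cells than in control cells. E2f1 had 3.56, 3.37 and 3.14 FPKM in control, 9.27, 9.67 and 9.72 FPKM in NFIA and 7.76, 5.94 and 6.78 FPKM in Δpro#3 samples at day 7. It was 1.28 ± 0.09 (adjusted p = 3.59e-07) higher in NFIA and 0.84 ± 0.09 (adjusted p = 3.96e-05) higher in Δpro#3 than in control cells on the log2 scale by limma (SE, n = 3 per group). E2f2 had 2.09, 1.84 and 1.71 FPKM in control, 5.01, 4.36 and 5.44 FPKM in NFIA and 3.89, 4.74 and 4.23 FPKM in Δpro#3 samples. By limma it was 1.04 ± 0.09 (adjusted p = 3.29e-06) higher in NFIA and 0.88 ± 0.09 (adjusted p = 5.48e-05) higher in Δpro#3 cells, so that control cells, the highest of the 3 at day 0, were the lowest at day 7. In both genes no NFIA or Δpro#3 sample overlapped with a control sample. The mitotic factors stayed low, with Foxm1 at 1.83, 1.36 and 1.39 FPKM in control, 1.51, 1.19 and 2.29 FPKM in NFIA and 1.58, 1.15 and 1.69 FPKM in Δpro#3 samples. Mybl2 had 0.319, 0.674 and 0.691 FPKM in control, 0.875, 0.761 and 1.06 FPKM in NFIA and 0.693, 0.283 and 0.671 FPKM in Δpro#3 samples, and neither factor was called.

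Ribonucleotide reductase fell in NFIA cells. Rrm2 had 65.6, 66.2 and 76.8 FPKM in control, 22.3, 23.1 and 30.6 FPKM in NFIA and 70.4, 87.1 and 91.9 FPKM in Δpro#3 samples. The difference of NFIA from control cells was -1.43 ± 0.13 (adjusted p = 3.60e-06) on the log2 scale by limma, the largest fall of the members. Rrm1, the catalytic subunit, had 23.3, 21.9 and 21.4 FPKM in control, 9.10, 8.10 and 11.5 FPKM in NFIA and 13.2, 14.4 and 15.2 FPKM in Δpro#3 samples. It was -1.15 ± 0.11 (adjusted p = 3.91e-06) in NFIA and -0.60 ± 0.11 (adjusted p = 0.00108) in Δpro#3 against control cells on the log2 scale by limma. The Δpro#3 fall of Rrm1 was no longer called after median-ratio scaling between samples, at -0.55, and without control replicate 1 or Δpro#3 replicate 1, at -0.57 and -0.55.

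Tk1, by contrast, had 1.34, 2.0 and 1.56 FPKM in control, 3.13, 2.52 and 6.20 FPKM in NFIA and 2.39, 1.43 and 2.35 FPKM in Δpro#3 samples. It was 0.85 ± 0.24 (adjusted p = 0.00895) higher in NFIA than in control cells by limma, but at 0.21 in Δpro#3 cells it was not called. Of the 6 helicase genes, 0 were called against control cells by limma in either comparison, with 4 higher in NFIA and 1 higher in Δpro#3 cells at an unadjusted p under 0.05. At that unadjusted p, 32% of all genes were higher in NFIA and 24% in Δpro#3 cells. Mcm5 was called higher in NFIA cells after median-ratio scaling (0.64) and with a pseudocount of 0.1 (0.76), and voom called 1 of the 6 higher in NFIA and 0 in Δpro#3 cells. Mcm5 had 2.19, 1.76 and 1.64 FPKM in control, 2.55, 2.55 and 5.04 FPKM in NFIA and 2.06, 1.35 and 1.74 FPKM in Δpro#3 samples. For Mcm2 the values were 7.63, 6.80 and 7.54 FPKM in control, 6.88, 5.05 and 7.35 FPKM in NFIA and 7.21, 5.76 and 6.48 FPKM in Δpro#3 samples. In these genes NFIA replicate 3 was the highest of the NFIA samples and, in Tk1 and Mcm5, of all 9 samples.

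Of the other members, the GINS subunits Gins1 (0.67 ± 0.16 (adjusted p = 0.00343)) and Gins2 (0.64 ± 0.19 (adjusted p = 0.0112)) and Ccne2 (0.64 ± 0.10 (adjusted p = 1.75e-04)) rose in NFIA against control cells, by limma. Rfc3 (-0.59 ± 0.09 (adjusted p = 2.15e-04)) and Cdk1 (-0.64 ± 0.12 (adjusted p = 8.80e-04)) fell, by limma, and these 2 falls were not called after median-ratio scaling, which left Rrm1 and Rrm2 as the falls. Ccne2 had 1.18, 1.31 and 1.25 FPKM in control, 2.27, 2.61 and 2.64 FPKM in NFIA and 1.10, 1.22 and 1.65 FPKM in Δpro#3 samples. Cdk1 had 10.9, 11.6 and 11.6 FPKM in control, 6.36, 5.82 and 9.06 FPKM in NFIA and 9.21, 8.53 and 9.26 FPKM in Δpro#3 samples. All NFIA samples were above all control samples in Ccne2 and below them in Cdk1.

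The clamp gene Pcna stayed abundant, with 47.9, 46.3 and 49.1 FPKM in control, 46.1, 45.8 and 50.7 FPKM in NFIA and 44.1, 47.0 and 49.1 FPKM in Δpro#3 samples. Cdt1 had 6.14, 5.23 and 6.31 FPKM in control, 5.06, 3.50 and 4.60 FPKM in NFIA and 3.63, 4.20 and 3.71 FPKM in Δpro#3 samples. Ccne1 had 3.05, 3.10 and 3.14 FPKM in control, 2.46, 2.61 and 3.45 FPKM in NFIA and 3.48, 4.01 and 4.97 FPKM in Δpro#3 samples. None of these 3 genes of the start of S phase was called at day 7 by limma with a pseudocount of 1, while Cdt1 was called lower in Δpro#3 than in control cells with a pseudocount of 0.1, at -0.60.

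Not one of the 8 mitotic kinases and checkpoint genes or the 11 chromosome and spindle genes was called in NFIA or Δpro#3 against control cells at day 7 (0 in each role, by limma). Of all genes, 16.8% were called higher and 18.8% lower in NFIA, and 6.94% and 5.79% in Δpro#3 cells. At an unadjusted p under 0.05, 2 of these mitosis genes were higher and 2 lower in NFIA cells and 1 was higher in Δpro#3 cells. By that rule, 32% of all genes were higher and 42.2% lower in NFIA cells and 24% were higher in Δpro#3 cells. Voom on the fragments called 1 of the mitosis genes higher in NFIA and 0 in Δpro#3 cells. Ccna2 had 2.55, 2.59 and 1.97 FPKM in control, 2.69, 2.14 and 4.15 FPKM in NFIA and 2.72, 2.55 and 3.11 FPKM in Δpro#3 samples. Ccnb1 had 3.37, 3.36 and 2.69 FPKM in control, 2.84, 2.1 and 5.18 FPKM in NFIA and 2.83, 3.01 and 4.58 FPKM in Δpro#3 samples. In both cyclins NFIA replicate 3 was the highest of all 9 samples. Cdc20 had 4.82, 4.8 and 4.06 FPKM in control, 4.86, 3.37 and 6.13 FPKM in NFIA and 3.67, 4.73 and 4.62 FPKM in Δpro#3 samples. Plk1 had 2.19, 1.96 and 2.54 FPKM in control, 2.12, 1.71 and 3.44 FPKM in NFIA and 2.32, 1.65 and 1.84 FPKM in Δpro#3 samples. Aurkb had 1.77, 1.66 and 1.43 FPKM in control, 1.91, 1.36 and 3.34 FPKM in NFIA and 2.16, 1.51 and 1.81 FPKM in Δpro#3 samples. For these 3 genes too, the highest value belonged to NFIA replicate 3.

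Bub1 was near 1 FPKM, with 1.01, 1.05 and 0.747 FPKM in control, 1.13, 0.918 and 1.47 FPKM in NFIA and 0.856, 0.694 and 1.20 FPKM in Δpro#3 samples. Top2a had 6.13, 5.59 and 4.76 FPKM in control, 5.67, 4.62 and 9.92 FPKM in NFIA and 5.56, 4.78 and 6.64 FPKM in Δpro#3 samples. Mki67 had 1.55, 1.57 and 1.41 FPKM in control, 1.98, 1.75 and 3.80 FPKM in NFIA and 2.37, 1.54 and 2.39 FPKM in Δpro#3 samples. The control samples of Mki67 and Top2a were close to each other while NFIA replicate 3 lay well above the other samples of its group. Birc5 had 1.81, 1.74 and 1.95 FPKM in control, 1.81, 1.22 and 2.56 FPKM in NFIA and 2.92, 2.16 and 2.86 FPKM in Δpro#3 samples. Kif11 had 1.38, 1.11 and 1.01 FPKM in control, 0.911, 1.06 and 2.13 FPKM in NFIA and 1.39, 1.16 and 1.46 FPKM in Δpro#3 samples. Cenpf had 0.844, 0.828 and 0.767 FPKM in control, 0.667, 0.803 and 1.38 FPKM in NFIA and 0.954, 0.799 and 0.944 FPKM in Δpro#3 samples. NFIA replicate 3 was the highest of the 9 samples in Bub1, Top2a, Mki67, Kif11 and Cenpf and the highest of the NFIA samples in Birc5.

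Without NFIA replicate 3, 4 members rose and 5 fell in NFIA against control cells at day 7. Gins2 and Tk1 were no longer called, at 0.43 and 0.54 on the log2 scale, and Prc1, a protein that bundles spindle microtubules, was called lower at -0.60. E2f1 at 1.27, E2f2 at 0.98, Rrm2 at -1.57 and Rrm1 at -1.27 were called without it as well. Leaving out NFIA replicate 1 instead left 2 falls, and leaving out NFIA replicate 2 gave 9 rises.

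Against control cells, the Δpro#3 cells at day 7 had 2 members higher, E2f1 and E2f2, and 1 lower, Rrm1, of the 48 tested, where 6.94% of all genes were called higher and 5.79% lower. The median member differed by 0.04, or by -0.01 with a minimum of 5 FPKM. Against NFIA cells, 2 members were higher in Δpro#3 cells and 5 lower, where 12.8% of all genes were called higher and 13.3% lower, and the median member was at -0.10, or at 0.07 without NFIA replicate 3 and 0.06 with a minimum of 5 FPKM. Rrm2 (1.68 ± 0.13 (adjusted p = 1.59e-06)) and Prc1 (0.66 ± 0.15 (adjusted p = 0.00328)) were higher, by limma. Mcm5 (-0.65 ± 0.19 (adjusted p = 0.0138)), Tk1 (-0.64 ± 0.24 (adjusted p = 0.0387)), Gins1, Gins2 and Ccne2 were lower, by limma, at values of -0.60 to -0.65. Without NFIA replicate 3, only Gins1 was called lower, at -0.61, and Mcm5 was at -0.40 and Tk1 at -0.33, while Rrm1 (0.67) was called higher beside Rrm2 (1.82) and Prc1 (0.86). Without Δpro#3 replicate 2, 0 members were called lower, and without Δpro#3 replicate 3, 3 were. Prc1 was not called without NFIA replicate 1 (0.53) or without Δpro#3 replicate 3 (0.58), which left 1 member higher.

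Among the other pathway genes at day 7, where 16.8% of all genes were called higher and 18.8% lower, 1 of 32 other replication genes rose and 7 fell in NFIA against control cells, with a median of -0.06 on the log2 scale. Of 34 other mitosis genes tested, 2 rose and 0 fell, with 5 lower at an unadjusted p under 0.05 in limma and 1 lower by voom, and the median was -0.01. At that unadjusted p, 42.2% of all genes were lower. Of 25 genes of E2F factors, DREAM and kinase inhibitors, 3 rose and 6 fell, with a median of -0.29. In Δpro#3 against control cells, with 6.94% of all genes called higher and 5.79% lower, these lists had 0, 1 and 1 genes called higher and 1, 0 and 1 called lower by limma, with 3, 4 and 4 higher and 11, 1 and 9 lower at an unadjusted p under 0.05, and by voom 0, 2 and 2 higher and 2, 0 and 3 lower. At that unadjusted p, 24% of all genes were higher and 31.2% lower.

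**Figure D4:**
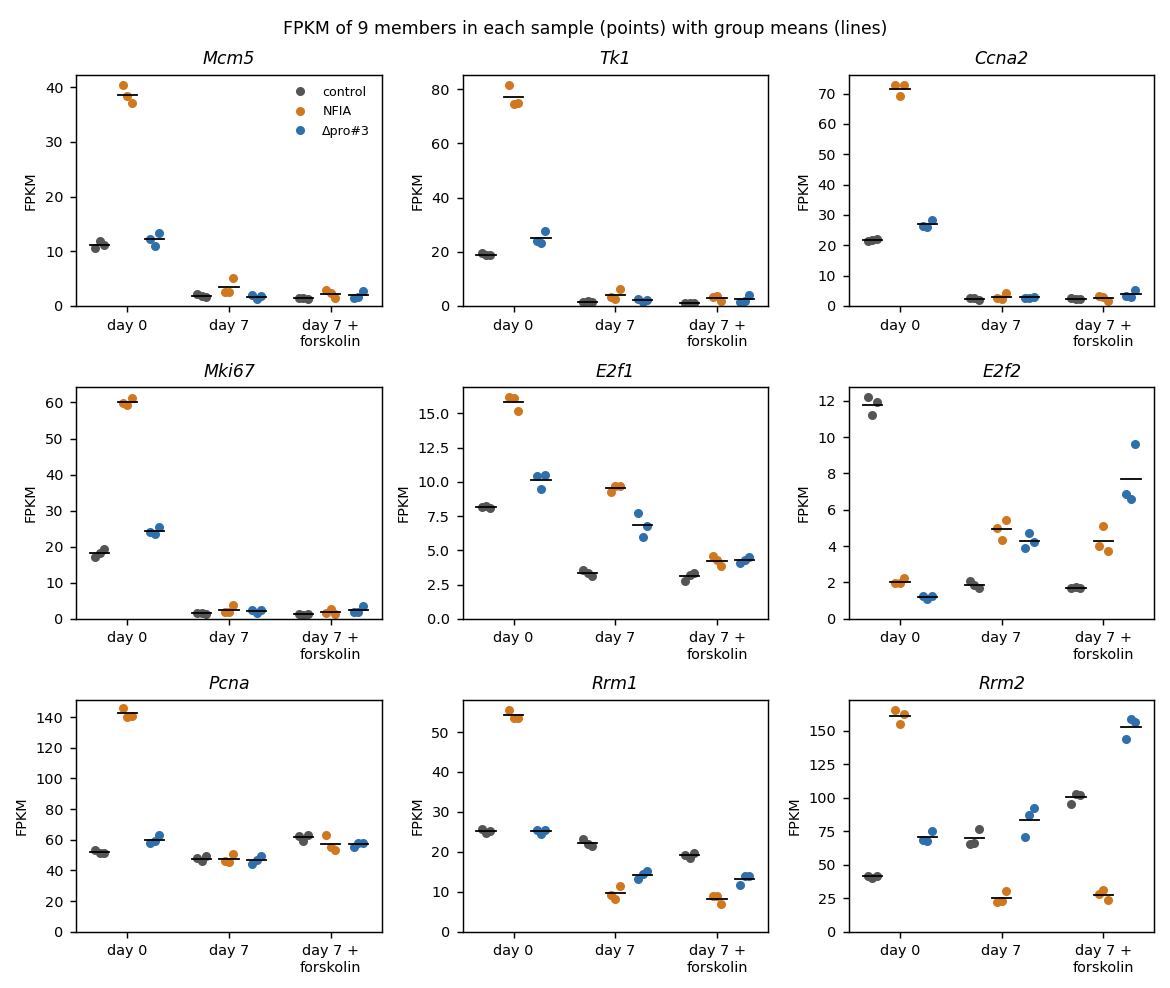
FPKM of 9 members in each of the 27 samples (points, with a line at each group mean) at day 0, at day 7 and at day 7 with forskolin, for control (grey), NFIA (orange) and Δpro#3 (blue) cells. Mcm5, Tk1, Ccna2 and Mki67 are highest in NFIA cells at day 0, E2f2 changes the order of its groups between the days, and Rrm2 at day 7 is lowest in NFIA cells, 22.3 to 30.6 FPKM.

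After forskolin, E2f2 and Tk1 were the members higher in NFIA than in control cells, and Rrm2 and Rrm1 were the lowest. Of the 47 members tested, 2 were higher and 4 lower in NFIA cells, where 13.5% of all 12121 genes were called higher and 21% lower. The median member was at 0.04 on the log2 scale, 0.16 without NFIA replicate 3 and -0.23 with a minimum of 5 FPKM, and the median of all genes at -0.17, so that unscaled differences of this comparison are to be read against that shift. Cdc6 and Mybl2 were not tested. Cdc6 had 0.378, 0.343 and 0.452 FPKM in control, 0.710, 0.669 and 0.559 FPKM in NFIA and 0.288, 0.505 and 0.519 FPKM in Δpro#3 samples. Mybl2 had 0.406, 0.378 and 0.552 FPKM in control, 0.552, 0.556 and 0.462 FPKM in NFIA and 0.183, 0.497 and 0.553 FPKM in Δpro#3 samples. The muscle markers summed to 17617 to 20382 FPKM in control, 2039 to 2519 FPKM in NFIA and 15896 to 17745 FPKM in Δpro#3 samples, and the adipocyte markers to 299 to 311 FPKM, 12899 to 13621 FPKM and 539.9 to 900.3 FPKM, with none of either list at 0. The myoblast markers, none at 0, summed to 661 to 746 FPKM in control, 221 to 261 FPKM in NFIA and 873 to 987 FPKM in Δpro#3 samples. Most of each sum was again Des, with means of 570, 172 and 798 FPKM in control, NFIA and Δpro#3 samples. Vcam1 was highest in NFIA samples, at 14.1, 50.6 and 14.0 FPKM. Myod1 was lower in Δpro#3 than in control samples, at 78.2, 20.5 and 55.0 FPKM.

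E2f2 had 1.7, 1.76 and 1.68 FPKM in control, 4.02, 5.13 and 3.73 FPKM in NFIA and 6.89, 6.59 and 9.62 FPKM in Δpro#3 samples with forskolin. It was 0.95 ± 0.13 (adjusted p = 6.21e-05) higher in NFIA and 1.66 ± 0.13 (adjusted p = 3.84e-06) higher in Δpro#3 than in control cells, by limma. Rrm2 had 95.6, 103 and 102 FPKM in control, 28.2, 30.8 and 23.5 FPKM in NFIA and 144, 159 and 156 FPKM in Δpro#3 samples. It was -1.83 ± 0.09 (adjusted p = 1.17e-08) in NFIA and 0.61 ± 0.09 (adjusted p = 2.43e-04) in Δpro#3 against control cells, by limma, and the 3 groups did not overlap. Rrm1 had 19.2, 18.4 and 19.8 FPKM in control, 8.97, 8.87 and 6.89 FPKM in NFIA and 11.8, 14.0 and 13.8 FPKM in Δpro#3 samples. Its difference of NFIA from control cells was -1.13 ± 0.10 (adjusted p = 1.39e-06) by limma.

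Tk1 had 1.20, 1.10 and 1.21 FPKM in control, 3.38, 3.51 and 1.92 FPKM in NFIA and 1.58, 1.78 and 4.00 FPKM in Δpro#3 samples. It was 0.83 ± 0.23 (adjusted p = 0.00770) higher in NFIA than in control cells by limma, and by 1.04 without NFIA replicate 3, the lowest NFIA sample. The falls of Rfc3 (-0.72 ± 0.10 (adjusted p = 7.52e-05)) and Cdk1 (-0.65 ± 0.17 (adjusted p = 0.00480)) by limma were not called after median-ratio scaling, which left 2 falls and 4 rises. Without NFIA replicate 3, 4 members rose in NFIA against control cells. Cdk1 had 9.71, 8.58 and 10.0 FPKM in control, 5.86, 7.35 and 4.11 FPKM in NFIA and 8.98, 10.2 and 13.0 FPKM in Δpro#3 samples.

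E2f1 had 2.76, 3.20 and 3.35 FPKM in control, 4.60, 4.28 and 3.84 FPKM in NFIA and 4.06, 4.27 and 4.55 FPKM in Δpro#3 samples. All its NFIA and Δpro#3 samples lay above the control samples, and its differences of 0.35 and 0.37 were under the fold threshold. Foxm1 had 1.47, 1.48 and 1.42 FPKM in control, 1.5, 1.58 and 1.11 FPKM in NFIA and 1.7, 1.69 and 2.54 FPKM in Δpro#3 samples. Mcm5 had 1.53, 1.49 and 1.35 FPKM in control, 2.87, 2.29 and 1.53 FPKM in NFIA and 1.51, 1.64 and 2.64 FPKM in Δpro#3 samples. Mcm2 had 6.33, 5.89 and 5.95 FPKM in control, 5.30, 4.56 and 3.90 FPKM in NFIA and 4.43, 5.2 and 6.32 FPKM in Δpro#3 samples. In Mcm5 as in Foxm1, the lowest of the NFIA samples and the highest of the Δpro#3 samples was replicate 3.

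Cdt1 had 4.59, 4.84 and 4.7 FPKM in control, 4.79, 3.57 and 3.03 FPKM in NFIA and 2.53, 3.09 and 4.03 FPKM in Δpro#3 samples. Pcna had 62.4, 59.3 and 63.0 FPKM in control, 62.9, 55.1 and 53.6 FPKM in NFIA and 55.3, 57.9 and 57.6 FPKM in Δpro#3 samples. Ccne1 had 2.84, 2.17 and 3.14 FPKM in control, 2.72, 2.92 and 1.71 FPKM in NFIA and 3.90, 3.80 and 4.15 FPKM in Δpro#3 samples. None of these 3 was called by limma with a pseudocount of 1, while Ccne1 was called higher in Δpro#3 than in NFIA cells with a pseudocount of 0.1, at 0.70. Ccne2 had 1.05, 1.47 and 1.42 FPKM in control, 1.93, 2.13 and 2.08 FPKM in NFIA and 1.83, 2.03 and 1.79 FPKM in Δpro#3 samples. At 0.40 its difference of NFIA from control cells was under the fold threshold.

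The cyclin Ccna2 had 2.67, 2.20 and 2.33 FPKM in control, 3.15, 2.95 and 1.79 FPKM in NFIA and 3.16, 3.01 and 5.17 FPKM in Δpro#3 samples with forskolin. The mitotic cyclin Ccnb1 had 4.01, 3.14 and 3.43 FPKM in control, 3.35, 4.29 and 1.99 FPKM in NFIA and 3.53, 4.74 and 6.77 FPKM in Δpro#3 samples. Here too NFIA replicate 3 was the lowest and Δpro#3 replicate 3 the highest of all 9 samples. Cdc20 had 3.90, 3.92 and 4.50 FPKM in control, 5.0, 3.20 and 2.54 FPKM in NFIA and 4.21, 5.03 and 8.39 FPKM in Δpro#3 samples. Plk1 had 1.85, 2.14 and 1.92 FPKM in control, 2.22, 2.43 and 1.51 FPKM in NFIA and 2.32, 1.82 and 3.31 FPKM in Δpro#3 samples. Aurkb had 1.69, 1.48 and 1.40 FPKM in control, 2.15, 1.89 and 0.970 FPKM in NFIA and 1.89, 2.42 and 3.81 FPKM in Δpro#3 samples. The same libraries were the extremes of these 3 genes.

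Bub1 had 0.829, 0.621 and 0.997 FPKM in control, 1.02, 1.29 and 0.743 FPKM in NFIA and 1.04, 1.12 and 1.7 FPKM in Δpro#3 samples. Top2a had 5.18, 5.27 and 5.70 FPKM in control, 6.61, 7.98 and 4.62 FPKM in NFIA and 7.06, 7.41 and 11.3 FPKM in Δpro#3 samples. Mki67 had 1.28, 1.18 and 1.23 FPKM in control, 1.68, 2.66 and 1.36 FPKM in NFIA and 1.76, 1.92 and 3.44 FPKM in Δpro#3 samples. In Mki67 the control samples lay below every NFIA and Δpro#3 sample. Birc5 had 1.87, 1.43 and 1.93 FPKM in control, 1.26, 1.62 and 1.25 FPKM in NFIA and 2.65, 2.36 and 3.48 FPKM in Δpro#3 samples. Kif11 had 1.03, 0.871 and 0.996 FPKM in control, 1.16, 1.52 and 0.982 FPKM in NFIA and 1.37, 1.49 and 2.33 FPKM in Δpro#3 samples. Cenpf had 0.733, 0.702 and 0.827 FPKM in control, 0.735, 1.06 and 0.697 FPKM in NFIA and 0.906, 0.908 and 1.47 FPKM in Δpro#3 samples. All Δpro#3 samples were above all control samples in these 3 genes. Of all genes, 19.5% were higher in Δpro#3 than in control cells with forskolin at an adjusted p under 0.05 alone.

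Against control cells, Δpro#3 cells with forskolin had 4 members higher and 0 lower of the 47 tested, where 6.4% of all genes were called higher and 6.39% lower. At an unadjusted p under 0.05, limma had 23 higher and 3 lower, where 22.4% of all genes were higher and 31.2% lower, and voom called 15 higher and 0 lower. The 4 were E2f2, Mcm3 (0.64 ± 0.07 (adjusted p = 4.05e-05)), Rrm2 and Prc1 (0.60 ± 0.15 (adjusted p = 0.00826)), by limma. The median member was 0.32 higher, 0.18 without Δpro#3 replicate 3 and 0.11 with a minimum of 5 FPKM, and 42 of the 47 were on the positive side, as were 43.8% of all genes, with all 8 mitotic kinases and checkpoint genes and all 11 chromosome and spindle genes among the 42. After median-ratio scaling 7 members were called higher, and 8 were without Δpro#3 replicate 1. Without Δpro#3 replicate 3, 1 member was called lower.

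Against NFIA cells, Δpro#3 cells with forskolin had 7 members higher and 0 lower, where 15.8% of all genes were called higher and 11.4% lower, and the median member was at 0.23 beside 0.12 for all genes. That median was 0.14 without Δpro#3 replicate 3 and 0.14 without NFIA replicate 3. By limma, 1 member was lower at an unadjusted p under 0.05, where 25.3% of all genes were. By voom, 13 members were called higher and 0 lower. Rrm2 (2.44 ± 0.09 (adjusted p = 1.87e-09)) and Prc1 (0.89 ± 0.15 (adjusted p = 4.39e-04), and 0.70 without NFIA replicate 3) led by limma, followed by Cdk1 (0.81), E2f2 (0.71), Birc5 (0.68), Rrm1 (0.62) and Tpx2 (0.59), a spindle assembly factor. Rrm1 and Tpx2 were not called after median-ratio scaling, which left 5 higher. The number called higher was 4 without Δpro#3 replicate 3 and 11 without Δpro#3 replicate 1.

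Where 13.5% of all genes were called higher and 21% lower with forskolin, the other pathway genes had 0 of 32 other replication genes higher and 8 lower in NFIA against control cells by limma, with 6 higher at an unadjusted p under 0.05 and 3 by voom. At that unadjusted p, 26.2% of all genes were higher. Of 34 other mitosis genes, 1 was higher and 3 lower, and of 25 genes of E2F factors, DREAM and kinase inhibitors, 4 were higher and 9 lower. In Δpro#3 against control cells, with 6.4% of all genes called higher and 6.39% lower, these lists had 0, 4 and 4 genes called higher and 0, 0 and 1 called lower by limma. At an unadjusted p under 0.05 they had 2, 13 and 8 higher and 9, 2 and 6 lower, where 22.4% of all genes were higher and 31.2% lower. By voom the lists had 2, 11 and 4 higher and 1, 0 and 1 lower.

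**Figure D5:**
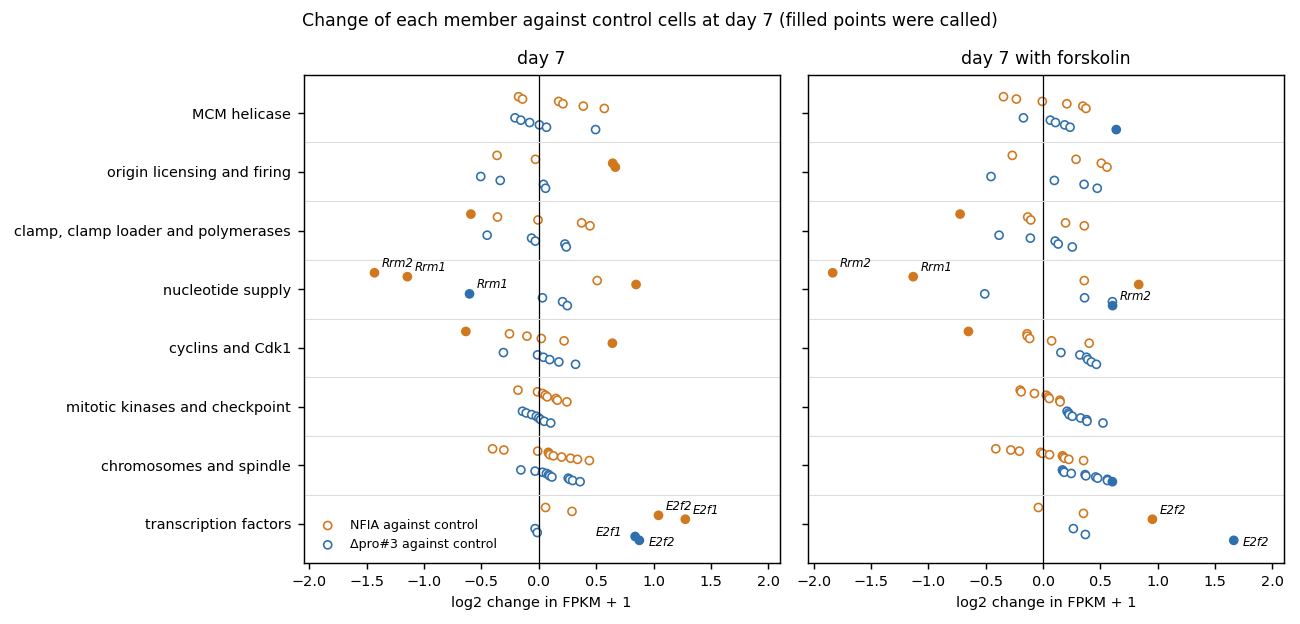
Change of each member against control cells at day 7 (left) and at day 7 with forskolin (right) on the log2 scale of FPKM + 1, by role, for NFIA (orange) and Δpro#3 (blue) cells, with filled points for called genes. Rrm2 (-1.43 and -1.83) and Rrm1 (-1.15 and -1.13) of NFIA cells are the points farthest to the left, and the points farthest to the right are E2f1 of NFIA cells at day 7 (1.28) and E2f2 of Δpro#3 cells with forskolin (1.66).

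Next, cells with and without the 4 h of forskolin were compared within each kind of cell. In control cells, 0 of the 48 members tested rose and 0 fell by limma, where 2.2% of all 12245 genes rose and 1.94% fell. At an unadjusted p under 0.05, 3 members were higher and 5 lower, where 10.5% of all genes were higher and 21.6% lower. Voom called 0 higher and 2 lower. Without control day 7 replicate 3, 1 member was called in each direction. The median member was at -0.12 and that of all genes at -0.05. Cdc6 was again not tested.

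In NFIA cells, 2 members fell and 0 rose with forskolin, where 9.56% of all genes fell and 3.96% rose, and the median of all genes was -0.15. At an unadjusted p under 0.05, 10 members were lower and 1 higher by limma, where 44.9% of all genes were lower and 15.3% higher. Voom called 3 lower and 0 higher. E2f1 had 9.27, 9.67 and 9.72 FPKM without and 4.60, 4.28 and 3.84 FPKM with forskolin, a fall with no overlap and a change of -1.01 ± 0.08 (adjusted p = 5.26e-08) by limma. Mcm6, a helicase subunit, went from 8.26, 7.72 and 9.13 FPKM to 6.31, 5.0 and 4.17 FPKM, a change of -0.62 ± 0.12 (adjusted p = 5.43e-04) by limma. The fall of Mcm6 was not called without NFIA day 7 replicate 3 (-0.56), without NFIA forskolin replicate 3 (-0.50) or after median-ratio scaling (-0.50), each of which left E2f1 as the only fall.

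In Δpro#3 cells, 2 members rose and 0 fell with forskolin, where 3.32% of all genes rose and 4.12% fell. At an unadjusted p under 0.05, 6 members were higher and 1 lower by limma, where 15.1% of all genes were higher and 30.2% lower. Voom called 4 higher and 1 lower. Rrm2 had 70.4, 87.1 and 91.9 FPKM without and 144, 159 and 156 FPKM with forskolin, a rise of 0.88 ± 0.12 (adjusted p = 2.84e-05) by limma. E2f2 had 3.89, 4.74 and 4.23 FPKM without and 6.89, 6.59 and 9.62 FPKM with forskolin, a rise of 0.71 ± 0.12 (adjusted p = 2.60e-04) by limma, and was not called without forskolin replicate 3 (0.55), whose value was the highest. Without that sample, or without day 7 replicate 2, 1 member was called lower. E2f1 had 7.76, 5.94 and 6.78 FPKM without and 4.06, 4.27 and 4.55 FPKM with forskolin, with no overlap. Its change was -0.56 ± 0.08 (adjusted p = 7.73e-05) by limma, under the fold threshold, and was called with a pseudocount of 0.1 (-0.65).

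The response of E2f1 differed between NFIA and control cells. Of the 48 members, 1 had a response that was lower in NFIA than in control cells and 0 had one that was higher, where 6.74% of all genes had a lower and 3.28% a higher response and the median of all genes was -0.10. That member was E2f1, at -0.92 ± 0.12 (adjusted p = 2.39e-05) for the difference by limma, and 1 member was higher at an unadjusted p under 0.05 and 1 by voom. At that unadjusted p, 12.1% of all genes were higher. Between Δpro#3 and control cells, 1 member had a higher response and 0 a lower one, where 1.11% of all genes had a higher and 1.22% a lower response. It was E2f2, at 0.79 ± 0.17 (adjusted p = 0.0120) by limma, and 1 member was lower at an unadjusted p under 0.05 and 0 by voom. At that unadjusted p, 10.2% of all genes were lower. For E2f1 the difference of Δpro#3 from control cells was -0.47 ± 0.12 (adjusted p = 0.0292) by limma, under the fold threshold, and the difference between the responses of NFIA and Δpro#3 cells was not tested. For Rrm2 the difference of Δpro#3 from control cells was 0.36 ± 0.17 (adjusted p = 0.262) by limma, so its rise was not shown to be larger in Δpro#3 than in control cells, where its own change was 0.52 ± 0.12.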

How the data were processed

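RNA from C2C12 cells was measured in 27 samples, in 9 groups of 3. The authors aligned paired reads to mm9 with STAR (version 2.5.3a in the submitters' processing notes), kept uniquely mapped reads, counted them per gene with strand and deposited FPKM values per sample, with no scaling between samples. Since 100% of the values were whole fragments within a tolerance of 0.02, fragments were worked back from FPKM and gene length for voom.

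Groups were compared with limma 3.58.1 in R 4.3.3 on log2(FPKM + 1), with a trend, in genes with a mean FPKM of at least 0.5 in the samples fitted: 12105 genes at day 0, 12324 at day 7, 12121 with forskolin, 12245 for forskolin responses and 12408 for day 0 to day 7. P-values were two-sided and adjusted over all genes by Benjamini-Hochberg. Responses were compared by interaction terms. The procedure was tested on simulated data. Standard errors (SE) are those of limma. Depth was 9567769 to 27230965 fragments, so a member at low FPKM rests on few fragments and counting error adds to its spread.

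The 49 members, their roles, the other pathway lists and the markers were chosen with earlier results of these data known. Values in every sample were given for a fixed list of genes from every role, and also named were the 2 largest rises and 2 largest falls called in each comparison and each member not tested. Gins1, Gins2, Rfc3, Rfc4 and Tpx2, and other members named where neither rule names them, were named after their values were seen. Alternatives were another pseudocount, scaling, filters, folds, no trend, fewer groups, a replicate block, voom and leaving out each sample. Figures were drawn with matplotlib 3.10.9 in Python 3.11.15.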

Additional observations from a re-analysis of the deposited data

Results flagged for a closer look

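The response of E2f1 to forskolin differed between NFIA and control cells by -0.92 on the log2 scale, by the interaction term of limma, with values of -0.99 to -0.87 when each sample was left out in turn. All 3 NFIA samples with forskolin were below all 3 without it, while the control samples overlapped. The Δpro#3 samples with forskolin were also below those without it, and E2f1 was not called there. The response of E2f2 differed between Δpro#3 and control cells by 0.79 by the same test, with values of 0.63 to 0.88 when each sample was left out, and the lowest value was the one without Δpro#3 replicate 3 with forskolin. Both differences kept their call when each sample was left out.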

How the results depend on the processing

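The numbers of members called between groups at day 7 and with forskolin are small. Most of the numbers, large ones included, moved with the fold threshold. At an adjusted p alone, Δpro#3 against control cells at day 0 had 30 higher and 7 lower, with the shares of all genes at 32.5% and 29.7%. At day 7 NFIA against control had 14 and 8 (31.3% and 41.1% of all genes), Δpro#3 against control 4 and 4 (21.3% and 27.5%) and Δpro#3 against NFIA 6 and 9 (34.3% and 29.4%). With forskolin these were 11 higher (25.5%), 16 and 3 (19.5% and 27.1%), and 16 and 1 (42% and 24.2%). The forskolin responses were 2 and 3 in control (7.05% and 13.5%), 1 and 9 in NFIA (13.9% and 41.5%) and 5 and 1 in Δpro#3 cells (11.9% and 23.9%). The difference of response of Δpro#3 had 1 lower (2.5%). At 3-fold, 9 were higher in NFIA against control at day 0, 0 higher in Δpro#3 against control and 3 lower in Δpro#3 against NFIA; at day 7 0 and 0, 0 and 0, and 1 and 0; with forskolin 0 and 1, 1 higher and 1 higher; 0 in the responses of NFIA and Δpro#3 and in both differences of response; and for day 0 to day 7, 0 and 25 in control, 0 higher in NFIA and 0 and 25 in Δpro#3 cells.

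By voom, Δpro#3 against control at day 0 had 2 higher; at day 7 10 were higher in NFIA and 2 lower in Δpro#3 against control and 4 higher in Δpro#3 against NFIA; with forskolin 6, 15 and 13 were higher; the response was 2 lower in control and 4 and 1 in Δpro#3 cells; and the difference of response of NFIA had 1 higher. After median-ratio scaling, 2 were lower in NFIA and 0 in Δpro#3 against control at day 7, 4 higher and 2 lower in NFIA and 7 higher in Δpro#3 against control with forskolin, and 1 lower in the response of NFIA cells. With a minimum of 5 FPKM, which leaves fewer members tested, 1 was higher in NFIA and 1 in Δpro#3 against control and 0 lower in Δpro#3 against NFIA at day 7, 0 higher in NFIA against control and 4 in Δpro#3 against NFIA with forskolin, 1 higher in the response of Δpro#3 cells, 0 in its difference, and 0 higher from day 0 to day 7 in NFIA and Δpro#3 cells. With a pseudocount of 0.1, 2 were higher in Δpro#3 against control at day 0, 3 lower at day 7 and 11 higher with forskolin, 6 higher in NFIA against control with forskolin, 2 lower in the response of control and 1 lower in that of Δpro#3 cells.

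Leaving out each sample in turn, Δpro#3 against control at day 0 had 1 to 3 higher. At day 7, NFIA against control had 4 to 9 higher and 2 to 5 lower, Δpro#3 against control 0 to 1 lower, and Δpro#3 against NFIA 1 to 3 higher and 0 to 5 lower. With forskolin, NFIA against control had 2 to 4 higher, Δpro#3 against control 3 to 8 higher and 0 to 1 lower, and Δpro#3 against NFIA 4 to 11 higher. The responses had 0 to 1 higher and 0 to 1 lower in control, 1 to 3 lower in NFIA, and 1 to 3 higher and 0 to 1 lower in Δpro#3 cells. The cause was not tested. The replicate numbers showed no pairing of the samples, by correlations between groups of each sample's deviations from its group's means. Same-numbered samples correlated in this measure at -0.0483 to 0.0821 at day 0, -0.173 to 0.131 at day 7 and -0.164 to 0.0772 with forskolin. Differently numbered samples were at -0.126 to 0.133, -0.149 to 0.201 and -0.099 to 0.139. With the replicate number as a block, as with no filter, no trend or the compared groups alone, 0 of the 34 counts moved by more than 1.5 times, and NFIA against control at day 0 kept 47 higher and 1 lower. Of the named members' values under the alternatives, 558 stayed on their side of the threshold, 16 lost their call and 0 reversed. The median member changed sign when a sample was left out in NFIA against control at day 7 (-0.07 to 0.21) and with forskolin (-0.02 to 0.16), in Δpro#3 against NFIA at day 7 (-0.20 to 0.07), in the forskolin response of Δpro#3 cells (-0.04 to 0.19) and in the difference of response between NFIA and control cells (-0.18 to 0.06). With a minimum of 5 FPKM it changed sign in NFIA against control at day 7 (-0.16) and with forskolin (-0.23), in Δpro#3 against control (-0.01) and against NFIA at day 7 (0.06) and in the response of Δpro#3 cells (-0.07). Depth limits the members at low FPKM, which rest on as few as 71 fragments a group.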

Other observations

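Some genes that hold cells in or out of the cycle, chosen after their values were seen, are given as FPKM with SD, n = 3 per group. Cdkn1a, the p21 inhibitor of cyclin-dependent kinases that muscle cells raise as they leave the cycle, had 161 ± 1.33 FPKM in control, 41.1 ± 0.270 FPKM in NFIA and 72.2 ± 1.88 FPKM in Δpro#3 cells at day 0, and 606 ± 50.6, 287 ± 18.4 and 429 ± 31.2 FPKM at day 7. Another inhibitor, Cdkn2c (p18), went the other way, with 10.1 ± 0.210 FPKM in control, 30.8 ± 2.06 FPKM in NFIA and 15.5 ± 0.710 FPKM in Δpro#3 cells at day 0.

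Cks1b, a small subunit of cyclin-dependent kinases from the list of other mitosis genes, stayed high in NFIA cells. It had 53.6 ± 2.30 FPKM in control, 85.3 ± 4.29 FPKM in NFIA and 56.7 ± 2.67 FPKM in Δpro#3 cells at day 0, and 14.5 ± 2.96, 62.6 ± 4.06 and 25.8 ± 1.7 FPKM at day 7. With forskolin its values were 13.6 ± 2.01 FPKM in control, 57.0 ± 5.27 FPKM in NFIA and 28.1 ± 0.546 FPKM in Δpro#3 cells. Uhrf1, which carries DNA methylation through replication, had 16 ± 0.552 FPKM in control, 49.3 ± 2.17 FPKM in NFIA and 14.9 ± 1.13 FPKM in Δpro#3 cells at day 0, and Lig1, the replicative DNA ligase, had 9.77 ± 0.192, 32.6 ± 0.735 and 11.9 ± 0.706 FPKM.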
